A study of Mus musculus with 3 samples.

Results

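The genes of glycolysis and lactate metabolism form a list of 42 members, chosen by name: glucose transporters, the enzymes from hexokinase to lactate dehydrogenase, regulators of pyruvate entry into mitochondria, lactate transporters and the enzymes that run the pathway backwards toward glucose. A member was measured by every probe set whose only gene symbol in the platform annotation was its own. By this rule 39 of the 42 had a probe set, of 18194 genes on the array in all. Gapdh was measured only by 3 control probe sets, which stayed outside the tests, and Eno1, Gpi1 and Pfkfb1 were not analysed here, so 38 members with 77 probe sets were tested. The RNA came from cap mesenchyme, the nephron progenitors that surround the ureteric tips, sorted by fluorescence from kidneys of CD-1 mouse embryos at E15.5 (Theiler stage 23, sex unknown). All 3 samples carried the transgene Tg(Six2-EGFP/cre)1Amc, so the cells of every pool bear EGFP and cre under Six2 control. Cells from about 5 to 10 trypsinised kidneys were pooled for each array, and their RNA was amplified in 2 rounds. The samples form 1 group with no control, and are called pools 1, 2 and 3.

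Glycolysis splits glucose into pyruvate in the cytosol. Pyruvate then either enters mitochondria through the pyruvate dehydrogenase complex or is reduced to lactate and exported. Most steps are catalysed by paralogs with tissue preferences, and the choice among them is a familiar mark of cell identity: embryonic and growing cells commonly use Hk2, Aldoa, Pkm and Ldha, while mature proximal tubule makes glucose with Fbp1, G6pc and Pck1. Nephron progenitors are known as a glycolytic population.

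Each probe set was compared with the background level of its own array, the 95th percentile of 150 probe sets for olfactory, vomeronasal, taste, keratin-associated and defensin genes. That level lay between a signal of 186 and 201. Signals are linear array intensities and differences are log2(signal + 16) minus the background level, tested one-sided with limma. An adjusted p-value under 0.05 was called above background, and a single such probe set was enough for its gene to be counted. Probe sets differ in affinity, so a signal of one paralog was never ranked against that of another. Isoform choice is therefore given as which paralogs were above background and which were not, and a paralog that was not may still be expressed. The p-values and each SE in log2 units rest on the spread between these 3 pools, moderated by limma toward the spread of probe sets of similar signal. An SE can therefore be larger or smaller than the pools alone would give. The labels do not tie the pools to separate litters. In bulk RNA fewer cells of a type and less RNA per cell cannot be told apart.

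Counts of markers are given beside the 54.4% of all named genes that were above background. All 11 cap mesenchyme markers were above background, so the labelled cell type showed its markers. So were 7 of 8 early nephron and 7 of 8 stromal markers, including Foxd1. Proximal tubule markers (among them the member Fbp1), erythroid and liver markers were above background in 0 of 11, 0 of 8 and 0 of 5 cases by limma, and also in 0 cases each at an unadjusted p under 0.05. Endothelial and macrophage markers passed in 1 of 8 cases each (Egfl7 and Laptm5), and striated muscle markers in 1 of 8 (Des). Ureteric bud markers passed in 4 of 11 cases (Wnt7b, Wnt11, Krt8 and Krt18). Neural markers passed in 4 of 7 (Elavl4, Nefl, Dbh and Uchl1), or 57.1%, near the share of all named genes. The ratio of the 3′ to the 5′ Gapdh control probe set was 20.5, 33.1 and 16.9 in pools 1, 2 and 3, from probe sets that may differ in affinity. Where each member's probe sets lie on its transcript was not tested. The same ratio for Actb was 3.54, 9.72 and 9.08, lowest in pool 1.

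Of the 38 tested members, 27 (71.1%) were above background, beside 54.4% of all 18193 named genes tested. Over probe sets the count was 45 of 77 (58.4%), beside 47.2% of all single-symbol probe sets. Genes with more probe sets had more chances to pass. Among members with 1, 2, 3 and at least 4 probe sets, 9 of 17, 8 of 9, 5 of 7 and 5 of 5 were above background, beside 37.1%, 64.3%, 76.9% and 84.5% of all named genes with as many. The median distance from background of the 38 members was 2.93 log2 units, beside 1.20 for all named genes. By its brightest probe set, no member lay between Aldoc, the lowest called at 0.92 log2 units, and Pklr, the highest not called at 0.41. Dimmer probe sets of called members did lie there, among them Slc2a3 (0.59), Pdk1 (0.65) and Pfkl (0.68), which were not called. The plot of signals by pool shows the brightest sets. In 10 of the 11 members not called at least 1 pool lay under the background level, the exception being Pklr. Every pool of the 27 called members lay above it. The calls were tested against this same level, so such a split follows largely from the calls.

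**Figure D1:**
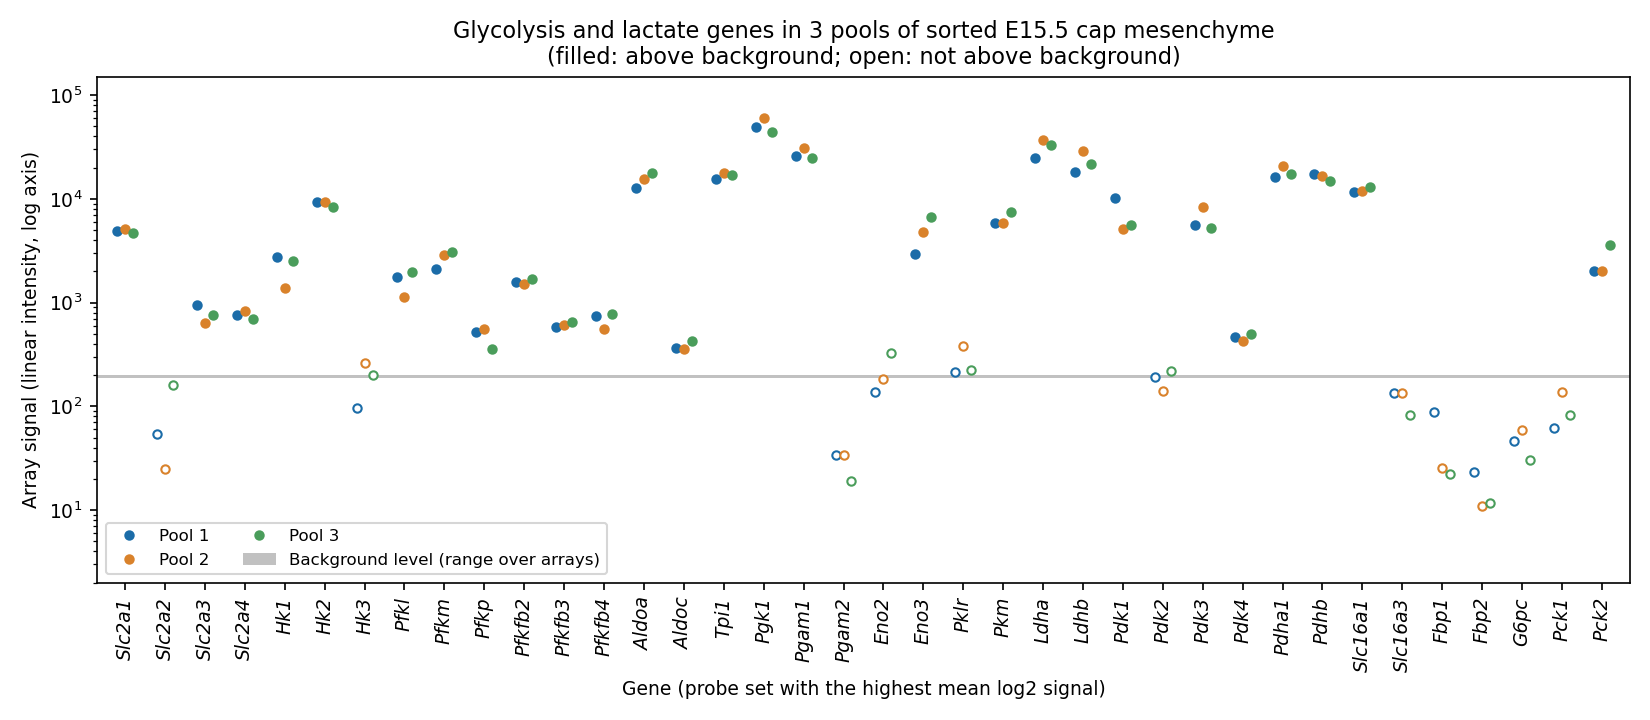
Array signal (linear intensity on a log axis) of each tested member in pools 1, 2 and 3, by its brightest probe set; the grey band is the background level, filled points are genes above background and open points are genes that are not. The 27 called genes lie above the band in every pool, from Aldoc near 384 to Pgk1 near 51037, and heights of different genes cannot be ranked.

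Glucose transporters bring the sugar into the cell, and 3 of 4 were above background. Slc2a1, the transporter of basal glucose uptake in most embryonic cells, had signals of 4916, 5117 and 4681 in pools 1, 2 and 3, which lay 4.55 ± 0.12 log2 units over background (SE; adjusted p = 2.00e-08, limma). Its 3 probe sets all passed. The pools differed by 1.09-fold on this set, and by 1.27-fold and 1.40-fold on the others. Slc2a3, a high-affinity transporter best known from neurons, read 938, 637 and 765 (adjusted p = 2.23e-05, limma). Only 1 of its 4 probe sets passed, a set of the kind that can match several transcripts, and the gene was not above background without such sets. Slc2a4, the insulin-responsive transporter of muscle and fat, read 756, 822 and 693 on the 1 of 2 probe sets that passed (adjusted p = 1.92e-05, limma). Slc2a2, the low-affinity transporter of liver, islets and proximal tubule, read 54.4, 24.7 and 162, under background in all 3 pools.

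Hexokinases phosphorylate glucose and trap it in the cell, and Hk1 and Hk2 were above background while Hk3 was not. Hk2, the regulated form of muscle, fat and many growing cells, had signals of 9348, 9291 and 8287 in pools 1, 2 and 3, or 5.42 ± 0.12 log2 units over background (SE; adjusted p = 1.60e-08, limma). The pools of Hk2 were close to each other, within 1.13-fold. Hk1, the form found in most tissues, read 2780.5, 1374 and 2518, lowest in pool 2, and passed on 1 of 2 probe sets (adjusted p = 1.53e-06, limma). The other Hk1 probe set read 12.9, 65.3 and 42.5, all under background. Hk3, a form best known from myeloid cells, read 97.1, 259 and 202 on its brighter probe set (adjusted p = 1.00, limma). Pool 2 lay above its background level of 186, pool 3 just above its level of 201, and pool 1 below its own. Of 8 macrophage markers 1 was above background, Laptm5 (459, 374 and 553), and their summed signals were 889.7, 953 and 1335 in pools 1, 2 and 3. Cd68 read 196, 233 and 461, over the background level in pools 2 and 3, and did not pass. C1qa read 9.42, 8.64 and 11.4. The part of macrophages in the Hk3 signal was not tested. The promoters of Hk2 (chr6:82774455-82774704, minus strand) and Hk3 (chr13:55021386-55021635, minus strand) are printed to set a called paralog beside one that was not. They are the 250 bases before the start of the gene in RefSeq on GRCm38.p6, 5′ to 3′, with capitals for ACGTG or its reverse complement CACGT, the core to which hypoxia-inducible factors bind (CACGTG, the E-box of Myc, holds both and overlaps itself). Hk2 held 2 matches and 25 CG pairs, and Hk3 held 1 match and 6 CG pairs.
Hk2: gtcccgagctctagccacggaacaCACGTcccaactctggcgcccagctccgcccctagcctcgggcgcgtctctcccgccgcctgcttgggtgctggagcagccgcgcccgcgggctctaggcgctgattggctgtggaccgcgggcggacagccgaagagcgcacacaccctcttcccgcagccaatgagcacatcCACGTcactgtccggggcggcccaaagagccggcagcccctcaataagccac
Hk3: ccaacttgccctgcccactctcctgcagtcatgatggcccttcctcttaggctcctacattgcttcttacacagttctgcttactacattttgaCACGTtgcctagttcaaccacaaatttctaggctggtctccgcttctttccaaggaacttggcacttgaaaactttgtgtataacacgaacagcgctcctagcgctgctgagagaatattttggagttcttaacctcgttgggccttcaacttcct

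Phosphofructokinase commits the sugar to glycolysis, and the 3 genes for its subunits were all above background. Pfkm, the muscle-type subunit, read 2124, 2855 and 3103 in pools 1, 2 and 3 (3.67 ± 0.15 log2 units over background, adjusted p = 1.73e-07, limma), lowest in pool 1. Pfkl, the liver-type subunit, read 1777, 1128 and 1950.3 and passed on 2 of 3 probe sets (adjusted p = 1.50e-06, limma). Pfkp, the platelet-type subunit, read 517, 554 and 359 (adjusted p = 0.00148, limma). It passed on 1 of 3 probe sets and was not above background when the background level was set at the 99th percentile. The Pfkfb enzymes make and remove the sugar phosphate that activates phosphofructokinase, and all 3 that were measured passed. Pfkfb2 read 1592, 1502 and 1684 on 1 of 4 probe sets that passed, and Pfkfb4, known as a hypoxia-responsive form, 737, 559.7 and 775 on its only probe set. Pfkfb3, the form that favours glycolysis in growing cells, read 587, 603 and 656 on 1 of 2 probe sets (adjusted p = 6.52e-05, limma), and did not pass at the 99th percentile (adjusted p = 0.0846, limma).

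Aldolase splits the sugar into smaller sugar phosphates, and Aldoa was above background on all 5 of its probe sets. Aldoa, the form of embryonic tissue and muscle, had signals of 12613, 15670.2 and 17794 in pools 1, 2 and 3 (6.18 ± 0.15 log2 units over background, adjusted p = 1.60e-08, limma). All 5 probe sets were highest in pool 3, and 4 of them were lowest in pool 1. All 5 are also of the kind that can match several transcripts, so no other probe set tells Aldoa apart from near-identical copies. Aldoc, the brain form, read 362, 359.8 and 431 on 1 of 2 probe sets, little over background (adjusted p = 0.00466, limma). Its other probe set read 86.6, 15.7 and 10.4, and the gene did not pass at the 99th percentile. Neural markers passed in 4 of 7 cases, near the 54.4% of all named genes, with summed signals of 5744, 4741 and 6268 in pools 1, 2 and 3. The sum was highest in pool 3 like Aldoc, as were 43.0% of all named genes above background. Its largest share came from Elavl4 (3705, 3326 and 3711), while Tubb3 read 0.99, 55.7 and 22.9 and Stmn2 23.3, 24.5 and 52.0. The part of neural cells in the Aldoc signal was not tested.

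Tpi1, Pgk1 and Pgam1, of the middle steps, were above background, and Pgam2 was not. Tpi1, which interconverts the products of aldolase, read 15460.3, 17833 and 16813 in pools 1, 2 and 3 and passed on 3 of 3 probe sets (6.31 ± 0.13 log2 units, adjusted p = 1.60e-08, limma). Pgk1, the X-linked kinase of the pathway's earlier ATP-yielding step, read 49355, 59579 and 44177 and also passed on 3 of 3. Its 3 probe sets put the pools in different orders, so no pool difference is given for it. For Gapdh, the dehydrogenase between them, the 3′ control probe set read 20009, 23751 and 23703, the middle one 4849, 5419 and 6742 and the 5′ one 976, 718 and 1405. Each lay above the background level in all 3 pools, outside the test. Pgam1, the mutase form of most tissues, read 25917, 30592 and 24697 (adjusted p = 1.60e-08, limma). Pgam2, the muscle form, read 34.3, 33.9 and 19.0, far under background in every pool.

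Among the enolase members, which make phosphoenolpyruvate, Eno3 was above background and Eno2 was not. Eno3 is the enolase of striated muscle, and it read 2913, 4749.7 and 6725 in pools 1, 2 and 3 on its only probe set (4.43 ± 0.22 log2 units over background, adjusted p = 5.35e-07, limma). It had the widest range between pools of the called members, 2.31-fold, with pool 1 lowest and pool 3 highest. Striated muscle markers were above background in 1 of 8 cases, Des (811, 914 and 1152). Their summed signals of 1463, 1796 and 2039 were also lowest in pool 1 and highest in pool 3. Of all named genes above background, 40.7% were lowest in pool 1 and 43.0% were highest in pool 3. The part of muscle cells in the Eno3 signal was not tested. The contractile and muscle enzyme genes Acta1 (28.0, 22.4 and 6.49), Myh3 (49.6, 18.1 and 16.3) and Ckm (58.2, 260.1 and 239) did not pass in limma. Eno2, the neuronal form, read 138, 182 and 328, with pools on both sides of the background level (adjusted p = 0.89, limma). Eno4, a paralog outside the members, read 245, 358 and 483 and passed on 1 of 3 probe sets (adjusted p = 0.0239, limma). Eno1, the form of most tissues, was not analysed here, so the enolase choice is incomplete. The promoter of Eno3 (chr11:70656926-70657175, plus strand) is printed as the called member with the fewest CG pairs, 3 in 250 bases, and held no match to the hypoxia core.
Eno3: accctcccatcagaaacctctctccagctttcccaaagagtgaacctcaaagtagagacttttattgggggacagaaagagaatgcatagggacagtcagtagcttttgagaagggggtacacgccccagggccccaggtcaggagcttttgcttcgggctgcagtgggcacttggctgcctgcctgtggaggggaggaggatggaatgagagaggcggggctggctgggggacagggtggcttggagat

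Pyruvate kinase ends glycolysis, and Pkm was above background while Pklr was not. Pkm, the gene of the kinase in embryonic and most adult cells, read 5914, 5882 and 7472 in pools 1, 2 and 3 (4.93 ± 0.13 log2 units over background, adjusted p = 1.79e-08, limma), but its splice forms were not told apart by the file. Pklr, the form of liver and red cells, read 215, 379 and 223 on its brightest probe set, over the background level in all 3 pools and furthest in pool 2 (adjusted p = 0.227, limma). It passed only when the background level was set at the 90th percentile (adjusted p = 0.0446, limma; 0.045 to 1 over 12 alternatives). The 2 dimmer sets averaged 128 and 46.3.

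**Figure D2:**
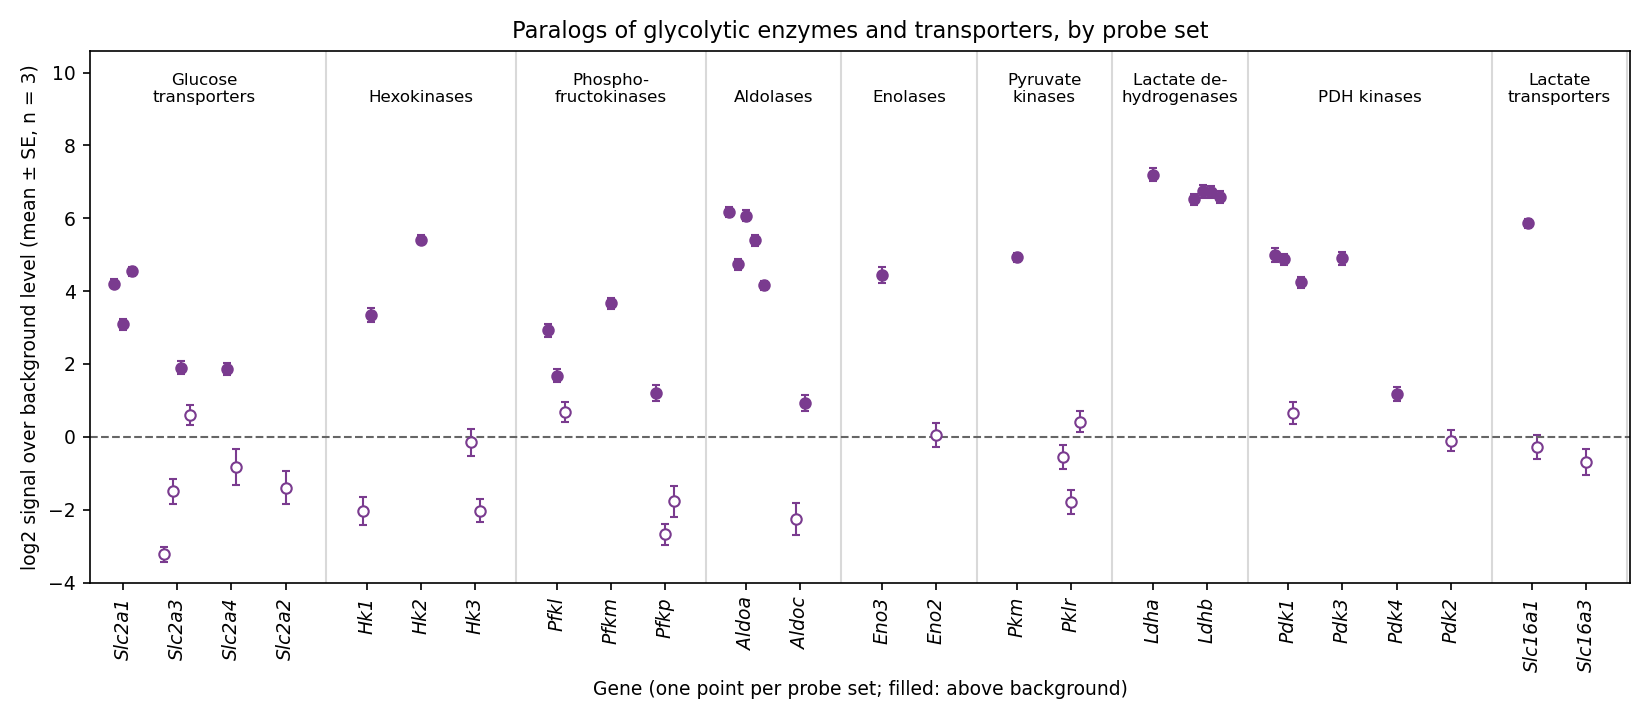
Mean log2 signal over the background level in 3 pools for each probe set of 9 families of paralogs, 1 point per probe set. Error bars are the moderated SE from limma, which draws on the spread of other probe sets too. Filled points are above background, and the dashed line at 0 is the background level. All 5 Aldoa and all 4 Ldhb probe sets lie over the line, while Hk3, Pklr, Eno2, Pdk2, Slc2a2 and Slc16a3 have no filled point.

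Both lactate dehydrogenase genes were above background on every probe set, so no choice between them was seen. Ldha, whose product favours making lactate from pyruvate, had signals of 24564, 36558 and 32872 in pools 1, 2 and 3 (7.20 ± 0.17 log2 units over background, adjusted p = 1.60e-08, limma). Ldhb, the heart form, which favours the return of lactate to pyruvate, read 18341, 29015 and 21576 (6.75 ± 0.18 log2 units, adjusted p = 1.96e-08, limma) and passed on 4 of 4 probe sets. Pool 1 was lowest on the Ldha probe set and on all 4 Ldhb probe sets, also after quantile normalization. Pool 2 was highest on all 5, but after quantile normalization pool 3 was highest on the Ldha probe set and on 3 of the 4 Ldhb sets. The 4 Ldhb sets read a single gene. As deposited, 40.7% of all named genes above background were lowest in pool 1 and 27.5% were highest in pool 2. The germ cell form Ldhc read 5.45, 16.1 and 52.8 and did not pass. The promoters of Ldha (chr7:46845554-46845803, plus strand) and Ldhb (chr6:142507958-142508207, minus strand) are printed because the paralogs differ in the hypoxia core: Ldha held 5 matches, including both strands of 2 E-boxes, with 25 CG pairs, and Ldhb held 0 with 14 CG pairs.
Ldha: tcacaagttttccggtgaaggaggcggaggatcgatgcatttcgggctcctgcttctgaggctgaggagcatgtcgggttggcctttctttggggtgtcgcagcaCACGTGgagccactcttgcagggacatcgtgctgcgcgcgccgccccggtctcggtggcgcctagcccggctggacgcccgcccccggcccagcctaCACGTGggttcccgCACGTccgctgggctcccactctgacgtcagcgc
Ldhb: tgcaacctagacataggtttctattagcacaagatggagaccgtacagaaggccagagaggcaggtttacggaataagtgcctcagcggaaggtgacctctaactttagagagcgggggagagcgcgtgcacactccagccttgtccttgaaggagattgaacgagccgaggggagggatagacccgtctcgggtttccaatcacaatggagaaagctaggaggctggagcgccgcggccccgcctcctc

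Lactate leaves or enters the cell through monocarboxylate transporters, and Slc16a1 was above background while Slc16a3 was not. Slc16a1, the widely used carrier, had signals of 11742, 11991 and 12956 in pools 1, 2 and 3 (5.86 ± 0.12 log2 units over background, adjusted p = 1.60e-08, limma), within 1.10-fold of each other. A second probe set of Slc16a1 read 219.5, 146 and 122 and did not pass. Slc16a3, the exporter of strongly glycolytic cells, read 133, 135 and 82.5, under background in every pool. Bsg, the chaperone that carries these transporters to the membrane, read 508, 511 and 567 (adjusted p = 0.000224, limma). Slc16a7, a related carrier, was above background too, with 1254, 1457 and 1063. The promoters of Slc16a1 (chr3:104638414-104638663, plus strand) and Slc16a3 (chr11:120948817-120949066, plus strand) are printed to set a called paralog beside one that was not. Each held 2 matches to the core. In Slc16a1 these were both strands of 1 E-box, and in Slc16a3 they were 2 separate matches, neither within an E-box. Slc16a1 held 37 CG pairs and Slc16a3 held 29.
Slc16a1: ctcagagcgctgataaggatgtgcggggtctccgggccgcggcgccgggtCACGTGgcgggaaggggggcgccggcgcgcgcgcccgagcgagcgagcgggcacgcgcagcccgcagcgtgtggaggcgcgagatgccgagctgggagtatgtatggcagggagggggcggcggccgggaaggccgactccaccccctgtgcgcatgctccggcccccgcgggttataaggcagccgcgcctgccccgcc
Slc16a3: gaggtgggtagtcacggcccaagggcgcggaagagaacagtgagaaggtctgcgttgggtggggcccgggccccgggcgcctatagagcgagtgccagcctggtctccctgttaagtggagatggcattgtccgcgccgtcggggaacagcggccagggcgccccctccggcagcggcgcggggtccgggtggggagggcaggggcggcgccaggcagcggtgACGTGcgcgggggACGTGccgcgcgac

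Entry of pyruvate into mitochondria is set by pyruvate dehydrogenase, which Pdk kinases switch off. The genes for the subunits of its decarboxylating component were above background on all 4 probe sets, Pdha1 with 16253, 20959 and 17360.2 and Pdhb with 17209, 16467 and 14833 in pools 1, 2 and 3. Of the 4 kinase genes, Pdk1, Pdk3 and Pdk4 were above background and Pdk2 was not. Pdk1, a hypoxia-responsive kinase, read 10231, 5110.4 and 5626, highest in pool 1 and 2.00-fold apart at most, and passed on 3 of 4 probe sets (4.99 ± 0.20 log2 units over background, adjusted p = 1.58e-07, limma). A second Pdk1 probe set was also highest in pool 1, with 7754, 5953 and 5097, but the third called set was lowest there, with 3143, 4518 and 4396. Pdk3 read 5631, 8373 and 5225, highest in pool 2 (adjusted p = 8.04e-08, limma). Pdk4, induced by fasting in muscle and other adult tissues, read 469.6, 425 and 496 (adjusted p = 0.000723, limma) and did not pass at the 99th percentile. Pdk2, the widespread adult form, read 189.8, 141 and 217, around the background level.

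Of the enzymes that turn pyruvate back into glucose, 1 of 5 genes passed, beside 54.4% of all named genes. Over probe sets 1 of 8 passed, beside 47.2% of all single-symbol probe sets. Fbp1, Fbp2 and G6pc had 1 probe set each, and 37.1% of all named genes with as many passed. The bisphosphatase Fbp1 of liver and proximal tubule read 87.5, 25.4 and 22.0 in pools 1, 2 and 3, and its muscle paralog Fbp2 read 23.1, 10.9 and 11.7. G6pc, which releases free glucose in liver and kidney cortex, read 46.8, 59.2 and 30.5. Pck1, the cytosolic carboxykinase of the same tissues, read 61.7, 136 and 81.6 on the brightest of 3 probe sets. These 4 genes lay under the background level in every pool. Pck2, the mitochondrial carboxykinase, was the exception with 2018, 2016 and 3562 on 1 of 2 probe sets, highest in pool 3 (3.54 ± 0.18 log2 units over background, adjusted p = 6.45e-07, limma). The proximal tubule markers Slc5a2 (171, 168 and 179), Slc22a6 (15.8, 107 and 34.1) and Miox (50, 71.3 and 47.0) were not above background either.

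The pools agreed about as closely on the called members as on other called genes. The median SD between pools was 0.22 log2 units for the 27 members, beside 0.23 for all 9892 named genes above background, with median coefficients of variation of 15.4% and 16.2%. The highest and the lowest pool differed at least 2-fold in 3 of 27 members, beside 7.36% of all named genes above background. These were Eno3 at 2.31-fold, Hk1 at 2.02-fold and Pdk1 at 2.00-fold. Hk1 and Pdk1 were barely past that size and fell under it after quantile normalization. Without pool 1 no member reached 2-fold, and without pool 2 only Eno3 did. On their brightest probe sets Slc2a1 and Slc16a1 spanned 1.09-fold and 1.10-fold as deposited, and 1.15-fold and 1.09-fold after quantile normalization. The median deviation of the members from their own means was -0.057, 0.043 and 0.081 log2 units in pools 1, 2 and 3, beside -0.039, -0.018 and 0.062 for all called genes. In every pool the 2 medians were close, with the members slightly higher in pools 2 and 3 and slightly lower in pool 1.

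**Figure D3:**
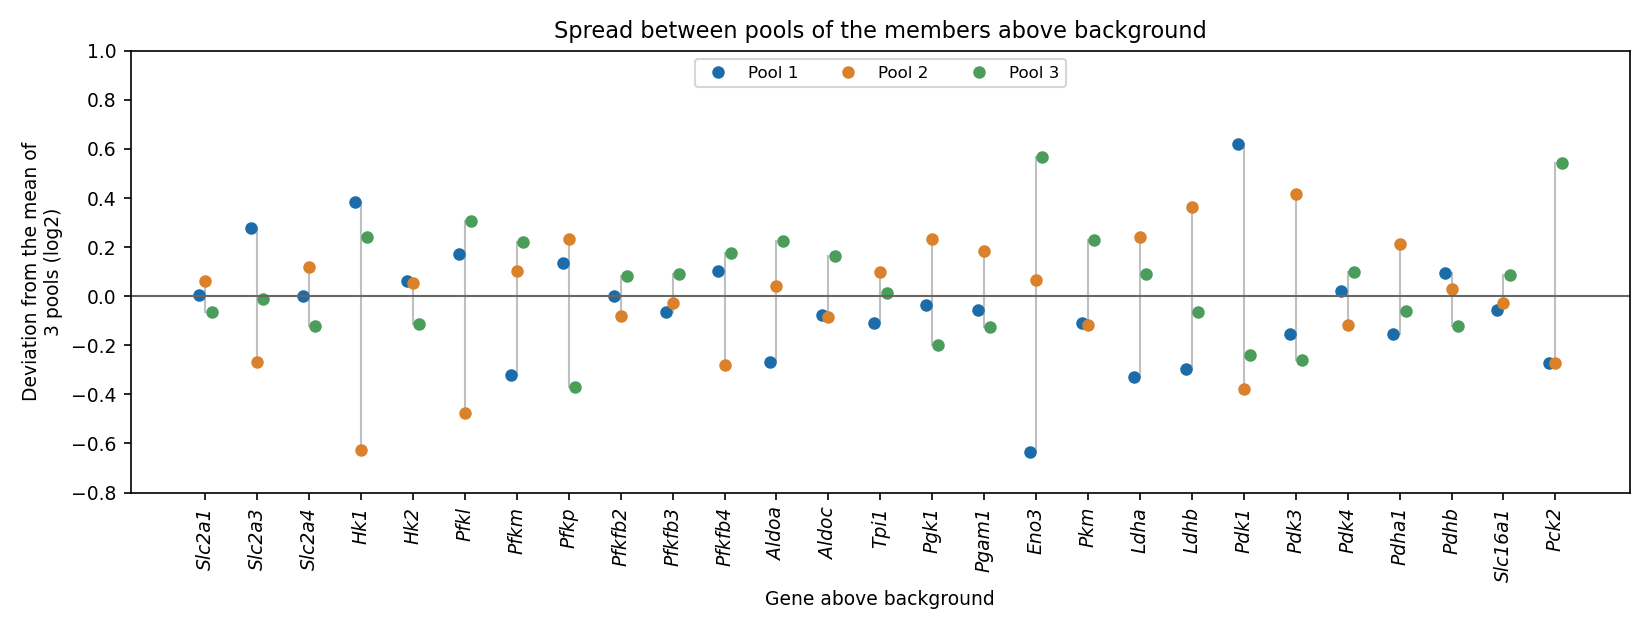
Deviation of each pool from the mean of 3 pools (log2) for the 27 members above background; points are pools and vertical lines span them. Eno3, Hk1 and Pdk1 span the most, in different orders of pools, on the deposited scale and each gene's brightest probe set.

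The routes that take carbon out of glycolysis were also above background in these cells, and differences between lists were not tested. All 8 measured genes of pyruvate entry and the pyruvate dehydrogenase complex passed, beside 54.4% of all named genes. Among them Dlat and Dld, further subunits of the complex, read 5046, 5454 and 4903 and 7278, 7321 and 5989 in pools 1, 2 and 3, and the mitochondrial pyruvate carrier gene Mpc1 read 4682, 3042 and 3633. Pdp1, the phosphatase that reverses the Pdk kinases, read 829, 680.2 and 664. The tricarboxylic acid cycle was represented by 19 of 19 measured genes, with the citrate synthase gene Cs at 26790.2, 25886 and 24954 and Suclg2 at 21353, 21802 and 22221. In the pentose phosphate pathway, which makes NADPH and ribose, 7 of 9 passed. Tkt read 37965, 39221 and 36157, whereas its relatives Tktl1 (50.7, 86.9 and 46.2) and Tktl2 (87.8, 141 and 113) did not pass. In glycogen metabolism 12 of 15 passed, with the primer gene Gyg at 13403, 21321 and 18135, but the liver synthase gene Gys2 (10.4, 4.93 and 6.66) and the muscle phosphorylase gene Pygm (179, 332 and 209) were not above background.

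Of 19 further paralogs and transporters measured, 11 passed (57.9%, near the 54.4% of all named genes), among them Bpgm, which makes the bisphosphoglycerate that tunes haemoglobin, at 2959, 6238 and 6106 in pools 1, 2 and 3, and the glucose transporter gene Slc2a12 at 1188, 1699 and 1136. No erythroid marker passed, with summed signals of 534, 869 and 674. Among them Hba-a2 read 153, 346 and 326, over the background level in pools 2 and 3, and Hba-a1 14.2, 16.8 and 5.59. The part of red cells in the Bpgm signal was not tested. The testis forms Pgk2 (5.82, 13.4 and 3.49), Pdha2 (4.63, 5.91 and 7.13) and Gapdhs (37.0, 43.6 and 22.7) were all far under background. Among regulators of glycolysis genes 14 of 20 passed. Egln1, an oxygen sensor that marks hypoxia-inducible factors for removal, read 8967, 8669.5 and 7522, Vhl, part of the ligase that degrades them, 5139.7, 5290.1 and 5717, and the growth regulator Myc 9184, 11466 and 9183. Egln3, a sensor that hypoxia induces, read 129, 151 and 58.4, and Hnf4a, the proximal tubule and liver regulator of gluconeogenic genes, 115, 99.2 and 135, neither above background.

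**Figure D4:**
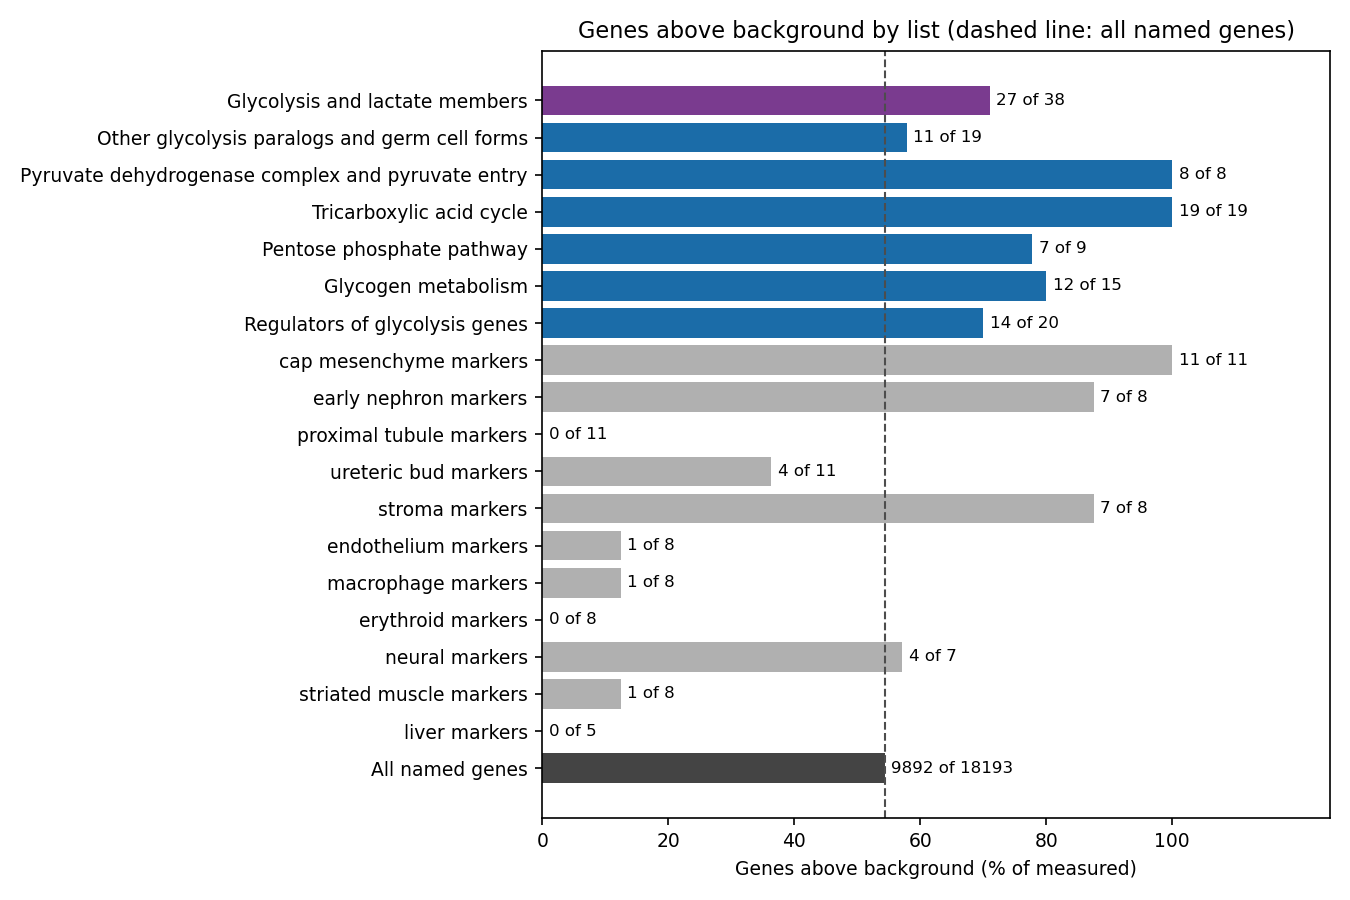
Share of measured genes above background (%, bars, with counts) for the glycolysis and lactate members, 6 related metabolic lists, 11 marker lists and all named genes (dashed line at 54.4%). The members stand at 27 of 38, the tricarboxylic acid cycle at 19 of 19, and proximal tubule markers at 0 of 11.

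Promoter sequence was available from RefSeq for 36 of the 38 tested members. When a gene had several starts, the window with the most CG pairs was used. The 25 members above background had a median of 15 CG pairs in 250 bases, and the 11 members not above background a median of 5. For all named genes the medians were 18 in 8091 genes above background and 6 in 6361 genes not above it, a split of the same direction. The hypoxia core ACGTG, searched on both strands, occurred in 11 of 25 called members (44%) and in 4 of 11 members not called (36.4%). It occurred in 23.4% of all called genes, in 16.1% of all genes not called and in 16.6% of all 32851 promoter windows of the table. Such a match is a description of letters and not of a bound site.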

How the data were processed

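Expression was measured on 3 arrays, 1 per pool of sorted cap mesenchyme. The authors' deposited tables give a linear intensity for each probe set, made with GCOS per the submitters' processing notes, and its version and settings are not given in the sources used here. As tested, each array's mean without the lowest and highest 2% of signals was 1499.5, so the arrays had been scaled alike, which removes differences in total signal. Symbols came from the platform annotation: of 45037 probe sets without the 64 controls, 34945 had 1 symbol, 932 several and 9160 none. Signals were tested with limma 3.58.1 in R 4.3.3 (intercept only, eBayes with trend) over all 45037 probe sets, with Benjamini-Hochberg adjustment. A gene with several probe sets took its values from the brightest on the log2 scale. In a simulation of 45037 probe sets, 17%, 94% and 100% of 200 probe sets placed 0.5, 1 and 2 log2 units over background were called. Each simulated probe set had the median spread at its signal level, so these rates do not describe probe sets with a larger spread. Members and lists were chosen with earlier results of these data known. All 42 members could be named, and from each other list up to 4 genes at the top and 3 at the bottom of the moderated statistic, besides pyruvate entry genes and enzyme paralogs. Bsg was chosen after its values were seen. Alternatives changed the pseudocount, background percentile, normalization, probe sets, filter, variance trend and pools. The number of arrays limits the precision. Python 3.11.15, pandas 2.3.3 and matplotlib 3.10.9 made tables and plots.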

Additional observations from a re-analysis of the deposited data

Results flagged for a closer look

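Signals over the background level in all 3 pools also came from probe sets outside the tests of single genes. The 3 Gapdh control probe sets had mean signals of 22487 at the 3′ end, 5670.1 in the middle and 1033 at the 5′ end of the transcript. A probe set annotated jointly to Gapdh and 4 other loci had a mean signal of 27067 ± 3742 (SD, n = 3), and another, shared by Gapdh and 1 pseudogene, of 356 ± 119 (SD, n = 3). A second set shared by the same pair read 88.7, 86.9 and 419 in pools 1, 2 and 3, over the background level in pool 3 only. A probe set annotated to Hk1 together with Rpl17 and 4 further loci averaged 67607 ± 24579.6 (SD, n = 3), with 53087, 95987 and 53748 in pools 1, 2 and 3, and was not counted for Hk1. Groups of 3 pools were too small for a search for outlying samples.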

How the results depend on the processing

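The count of members above background ranged from 23 to 28 over 13 alternatives, and no leave-out of a pool changed a call. The 99th percentile of background ended the calls of Pfkp, Pfkfb3, Aldoc and Pdk4, and the 90th added Pklr. With control probe sets kept in the fit, an alternative chosen after seeing the data, Gapdh was called too, making 28 of 39. Once sets matching several transcripts were left out, Slc2a3 was not called and Aldoa was not measured. Requiring at least as many probe sets above background as not left 24 genes, without Slc2a3, Pfkp and Pfkfb2. The count of members differing 2-fold between pools was 1 after quantile normalization and 0 to 2 when a pool was left out, in place of 3. Distances from background changed sign at the 99th percentile for Aldoc (-0.21 log2 units), Eno2 (-1.07) and Pklr (-0.72). At the 90th they did so for Hk3 (0.16) and Pdk2 (0.21), and without sets matching several transcripts for Slc2a3 (-1.43). Leaving out a pool did so for Hk3 (0.23 without pool 1), Pdk2 (0.029 without pool 2) and Eno2 (-0.25 without pool 3, against 0.32 without pool 1), none of which was called in either case. The median over a gene's probe sets was under background for Slc2a3 (-0.45), Pfkp (-1.77), Pfkfb2 (-1.48), Aldoc (-0.67) and Pklr (-0.56). These shifts follow from the higher or lower threshold or from fewer probe sets or pools, and other causes were not tested. No paired analysis was possible because the pools form a single group. Signals 0.5 log2 units over background were mostly not called in simulation, so weak transcripts can be missed.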

Other observations

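Outside the members, a few genes of the related metabolic lists differed at least 2-fold between pools, in different orders. Idh2, a mitochondrial isocitrate dehydrogenase, read 6683, 14053 and 15596 in pools 1, 2 and 3, and Bpgm 2959, 6238 and 6106, both lowest in pool 1. Pdp2, a phosphatase that activates pyruvate dehydrogenase, read 1224, 547 and 339, highest in pool 1. The brightest probe set of Pdk1, the counterpart kinase, was highest there too, but another called Pdk1 set was lowest there (3143, 4518 and 4396). Rpe, of the pentose phosphate pathway, read 4982, 5380.3 and 2224, lowest in pool 3. Among regulators, the subunit gene Arnt read 1795, 3647 and 2637 and Mlx 431, 611 and 902. The names Arnt and Mlx were chosen after their values were seen, and these differences between single arrays were not tested.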
